A study of Mus musculus with 3 samples.

Results

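Of 235 wells in the unfiltered table of a single-cell experiment on the mouse subventricular zone, 86 are absent from the filtered table and are described here as the wells left out. They were found by comparing the column names of the 2 tables. They make up 20 of 63 wells on plate 1, 34 of 79 on plate 2 and 32 of 93 on plate 3, and they were compared with the 149 wells of the filtered table, called kept cells (43, 45 and 61 per plate). All wells hold material from untreated male C57BL/6J mice, with 8 mice in each of 3 experiments; no source used here gives their age. The tissue was dissociated with trypsin and passed over a magnetic column that held cells binding an antibody to GLAST, the glutamate transporter encoded by Slc1a3. In 2 of the 3 experiments, which the labels do not name, myelin was removed with beads before that step. The samples form 1 group, and the plate of a well was read from its library name, which no sample label states. No source used here says on what grounds the authors dropped these wells, or whether each had received a whole cell.

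The subventricular zone lines the lateral ventricle and houses neural stem cells, which share most of their marker genes with astrocytes, among oligodendrocytes and microglia. In SORT-seq, cells are sorted into wells that each carry a barcode, and every captured polyadenylated RNA molecule is tagged near its 3′ end with a random molecular identifier, so a transcript is counted once whatever its length. Transcripts of the mitochondrial genome lie inside the organelle, and their share of a well is widely read as a sign of the state of the cell. In oligodendrocytes, the mRNA of myelin basic protein, Mbp, is carried along the processes and translated at the myelin sheath, whereas mRNAs of many other myelin proteins are translated in the cell body. Kinesin-1, whose heavy chains are encoded by Kif5a, Kif5b and Kif5c, moves cargo along microtubules.

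The barcodes below belong to 4 wells left out that recur in the results and to A16 of plate 1, a well from the columns that were mostly left out there. Each runs 5′ to 3′, and the same barcode marks the same position on every plate, so each could be followed on the other plates.
plate 1 A16: ctttgaca
plate 1 B21: ttcggaaa
plate 1 C13: gccatctt
plate 3 B12: ccagtcca
plate 3 C12: cgggtgaa
The barcode of A16 marked 101 transcripts on plate 1 and 5935 and 17593 transcripts in kept cells of plates 2 and 3. That of C13 marked 763 transcripts on plate 1 and 15528 and 15135 in kept cells of the other plates. The barcode of C12 marked a kept cell of 6334 transcripts on plate 1 and wells left out on plates 2 and 3, with 293 and 1612 transcripts. Among the 54 positions present on all 3 plates, 13 were left out on none, 25 on 1 plate, 14 on 2 plates and 2 on all 3. Barcodes of wells left out had 3.79 ± 0.74 G or C bases of 8 (SD, n = 86), and those of kept cells 3.99 ± 0.79 (SD, n = 149).

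The wells left out held little RNA. Their transcripts summed to 3502, 12081 and 13119 on plates 1 to 3, against 297573, 413728 and 478504 in the kept cells. A well left out on plate 1 had between 57 and 763 transcripts with a median of 131, and the medians were 286 on plate 2 (98 to 787) and 313 on plate 3 (83 to 1612). The number of genes detected separated the sides without overlap. The wells left out with the most genes were D2 of plate 2 (421 genes), D1 of plate 3 (414) and C13 of plate 1 (403), and the kept cells with the fewest were D2, C18 and A11 of plate 3 (579, 656 and 735 genes). Transcripts did overlap: wells C12 and D9 of plate 3, both left out, held 1612 and 1240 transcripts, and kept cells began at 1208. Since depth follows the side, transcripts and genes per well are a description and were not tested.

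**Figure D1:**
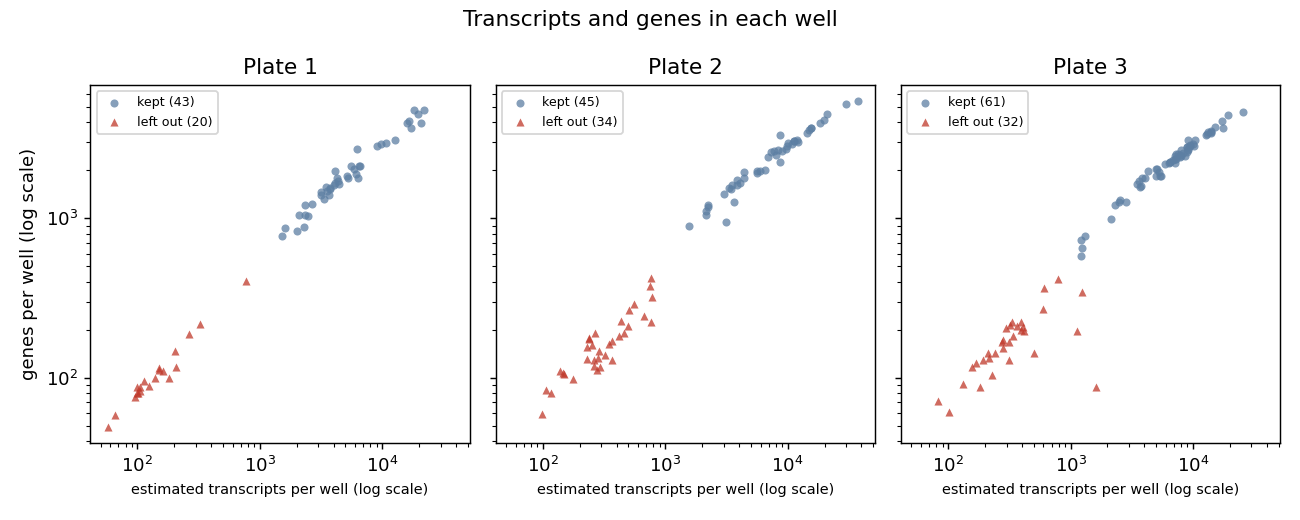
Estimated transcripts (x axis, log scale) and genes (y axis, log scale) of each well, with 1 panel per plate. Red triangles are wells left out and blue circles kept cells; the highest well left out has 421 genes and the lowest kept cell 579.

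Plate 1 stood apart in where its wells lay and in what they held. In rows A and B, columns 15 to 24, 18 of its 20 wells were left out, and in columns 1 to 14 only C13 among 40 wells was. The wells left out on the other plates were scattered, with 18 of 48 and 20 of 55 in columns 1 to 14 and 16 of 31 and 12 of 38 in columns 15 to 24. These columns were chosen after the layout was seen. Kept cells also differed by plate. On plate 1, 25 of 43 lay in cluster 3, where the astroglial list was highest (88682 CPM, transcripts per 1000000 of the summed wells), and 4 in the authors' clusters 0 and 2. On the other plates 73 of 106 lay in clusters 0 and 2, where the list of 28 myelin genes reached 132257 and 123691 CPM. Results are given per plate, and for plates 2 and 3 together as a comparison added after the values were seen.

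**Figure D2:**
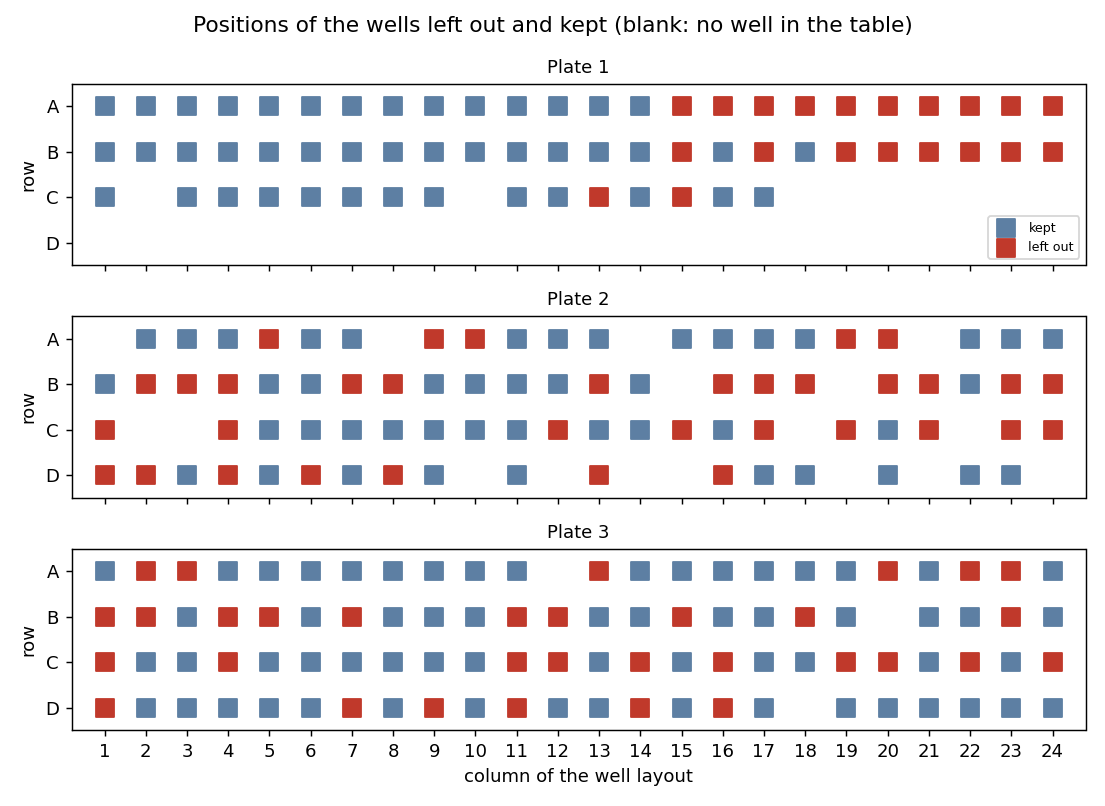
Rows and columns of the well layout for each plate, with wells left out in red and kept cells in blue; blank positions have no well in the table. On plate 1 the wells left out fill most of columns 15 to 24 of rows A and B, while on plates 2 and 3 they are scattered.

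Which transcripts remained in the wells left out was first asked over all genes. Transcripts were summed per plate and side and tested with edgeR's quasi-likelihood test with plate as a block. Over all 3 plates, 1 of 2689 genes tested was called at an adjusted p under 0.05 (0.0372%), higher in the wells left out, and none was called lower (0.0%), although 256 genes had an unadjusted p under 0.05. DESeq2 with plate made the same call and no other. On plates 2 and 3 alone, 113 of 3714 genes were called (3.04%), 32 of them higher (0.862%) and 81 lower (2.18%) in the wells left out. Some of the 32 were low in kept cells and passed the filter on low counts only through the wells left out. Their calls describe genes picked for being high there. Without that filter, 8 genes were called higher and 86 lower. This second fit rests on 4 sums and 1 residual degree of freedom. Its p-values borrow spread across genes, so a small one does not show how that gene varied between plates. DESeq2 called 13 higher and 1 lower there, all among the 113, and edgeR without the block called 0, with 607 genes at an unadjusted p under 0.05. The median log2 difference of all genes was -1.07 over 3 plates and -0.92 on plates 2 and 3, or -0.34 on plates 2 and 3 when the 762 genes with no transcript in the wells left out were set to a floor of 3 transcripts over the group.

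Tug1, a long noncoding RNA (GRCm38 chromosome 11, 3639785 to 3649673, minus strand), was the gene called over all plates. Its level in the wells left out was 2856, 2152 and 1982 CPM on plates 1 to 3, and in the kept cells 168, 143 and 209 CPM. Every plate was higher on the side left out, and the levels of the 2 sides did not overlap. The log2 difference was 3.21 (SE 0.72, edgeR adjusted p = 0.0205). The 62 Tug1 transcripts came from 45 of the 86 wells left out, with at most 4 in 1 well, against 209 transcripts in 99 of 149 kept cells. A mean well left out on plates 2 and 3 held 58.3% and 49.6% as many Tug1 transcripts as a mean kept cell, where all transcripts came to 3.86% and 5.23%. The call was lost without the block (3.26, adjusted p = 0.312), without the filter on low counts (2.53, 0.280) and without plate 2 or plate 3 (2.94, 0.815, and 3.24, 0.894), with log2 differences in the same direction.

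Mitochondrial transcripts made up more of the wells left out, by far the most on plates 2 and 3. All 37 genes of the mitochondrial genome together took 15.9%, 36.7% and 46.9% of transcripts in the wells left out and 12.7%, 12.5% and 12.1% in the kept cells. The sides did not overlap, and the kept cells were nearly equal across plates. The mean difference was 20.7 ± 16.1 percentage points (SD, n = 3 plates), with a two-sided exact sign-flip p = 0.25, the smallest that 3 plates allow. Among single wells, all 66 wells left out on plates 2 and 3 lay above the median kept cell of their plate, and 28 lay above the highest kept cell. On plate 1 these counts were 15 and 1 of 20. Among wells with at least 100 identifiers, the median share was higher in wells left out on every plate, by 3.37 percentage points on plate 1 and 20.5 on plate 3. The highest wells were C12 of plate 3, with 94.8% of 1612 transcripts, followed on that plate by B12 with 80.1% and B4 with 66.8%. C12 and B12 raise the sum of plate 3, where the median well left out stood at 30.9%. Without C12, B12 and wells C13 and B21 of plate 1, the mean difference was 17.8 ± 10.7 percentage points (SD, n = 3 plates). In C12 the leading gene was mt-Rnr2 with 458 transcripts, ahead of mtCo1 with 206.

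**Figure D3:**
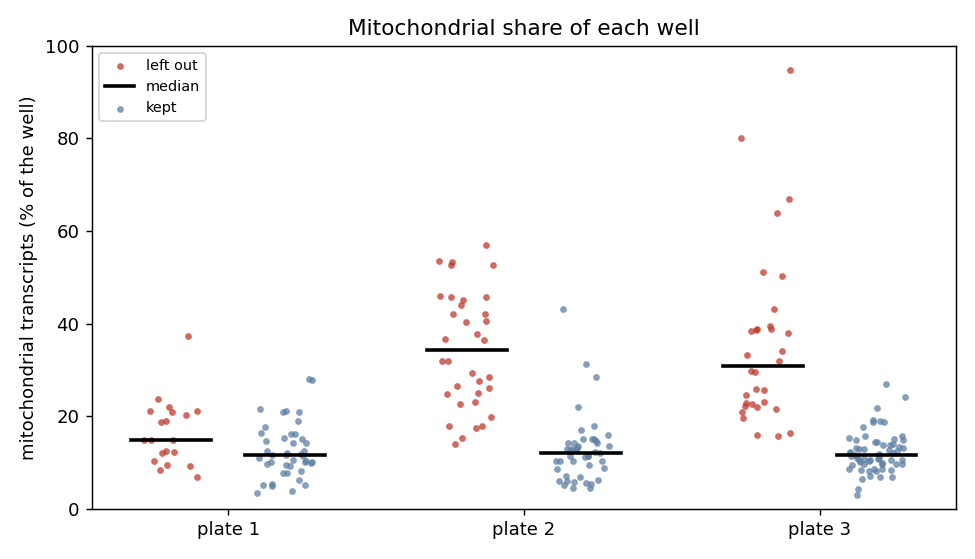
Mitochondrial transcripts as a percentage of each well (y axis), by plate and side; points are wells and black bars medians. Wells left out on plates 2 and 3 reach 56.9% and 94.8%, while the highest kept cells of those plates lie at 43.2% and 26.9%.

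The ribosomal RNAs of the mitochondrion differed more than its mRNAs on plates 2 and 3. The mitochondrial rRNAs took 2.11%, 10.8% and 15.1% of transcripts in the wells left out and 2.29%, 2.47% and 2.44% in the kept cells, a ratio of 0.92 on plate 1, 4.38 on plate 2 and 6.18 on plate 3. In the median well left out on plate 3 they took 10.4%. The 13 mitochondrial mRNAs took 13.8%, 25.9% and 31.8% against 10.4%, 10.1% and 9.68%, ratios of 1.32, 2.57 and 3.28. There were thus 0.15, 0.42 and 0.47 rRNA transcripts per mRNA transcript in the wells left out and 0.22, 0.25 and 0.25 in the kept cells. Both rRNA genes rose on plates 2 and 3: mt-Rnr1, the small subunit RNA (mitochondrial genome 70 to 1024), with a log2 difference of 2.48 (SE 0.45, edgeR adjusted p = 1.91e-05), and mt-Rnr2, the large subunit RNA (1094 to 2675), with 2.11 (SE 0.62, adjusted p = 0.0295). Among the 13 mRNAs, 3 rose there and none fell, against 0.862% and 2.18% of all genes tested, and the list median was 1.28. The 3 were mtNd5, mtNd4l and mtNd2, which encode subunits of respiratory complex I. The other 4 mRNAs of that complex were not called (mtNd1 1.11, mtNd3 0.84, mtNd4 1.497 and mtNd6 2.94). DESeq2 called mtNd5 (adjusted p = 0.0484) and both rRNA genes, and not mtNd4l (0.156) or mtNd2 (0.169). The level of mtNd5 went from 4051 and 3118 CPM in kept cells to 13256 and 22217 in wells left out. All 10 that were not called had log2 differences from 0.84 to 2.94; mtCo1, a subunit of cytochrome oxidase, had 1.36 (adjusted p = 0.118).

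Mbp was higher in the wells left out of plates 2 and 3, while most other myelin genes were lower. Mbp (chromosome 18, 82475146 to 82585637, plus strand) stood at 286, 29697 and 15872 CPM in the wells left out of plates 1 to 3 and at 1078, 6249 and 7156 CPM in kept cells. It was lower on plate 1, where a single transcript was found, and higher on both other plates. Over plates 2 and 3 the log2 difference of Mbp was 1.52 (SE 0.42, edgeR adjusted p = 0.0146), and over 3 plates it was 0.60 and not called (adjusted p = 0.827). The call was lost under DESeq2 with plate (1.63, adjusted p = 0.241), without the block (1.56, 0.149), without the filter on low counts (0.91, 0.461), without mitochondrial genes (1.53, 0.316) and against the third of kept cells with the fewest genes (3.47, 0.0697), all in the same direction.

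Single wells showed the same difference in Mbp. Outside the mitochondrial genome, Mbp was the most abundant gene on plate 2 and in place 2 on plate 3 in the wells left out, and in place 8 among the kept cells of both plates. The median well left out held 9 Mbp transcripts on plate 2 (0 to 31.1) and 6 on plate 3 (0 to 23.1), and no single well carried more than 5.49% of the Mbp transcripts of both plates. As a share of the transcripts outside the mitochondrial genome, Mbp took a median of 4.38% in the wells left out of plate 2 (0 to 19.8%) and 2.77% on plate 3 (0 to 11.3%). In kept cells of clusters 0 and 2 the median was 0.870% (0.567 to 1.57%) and 0.880% (0.436 to 2.04%), and kept cells of the other clusters lay at or below 0.618%. The share was above that of the highest kept cell of its plate in 47 of 66 wells left out (25 of 34 and 22 of 32) and in none of 20 on plate 1. These shares were chosen after the values were seen, and in wells with few transcripts they carry a large counting error. Set against a mean kept cell of clusters 0 and 2, a mean well left out on plates 2 and 3 held 10.4% and 9.17% of the Mbp, and 1.98% and 2.75% of all transcripts outside the mitochondrial genome. By the same measure it held 0.604% and 0.659% of the Mal, 0.683% and 0.606% of the Mog and 0.911% and 1.41% of the Mobp, which are other myelin genes.

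**Figure D4:**
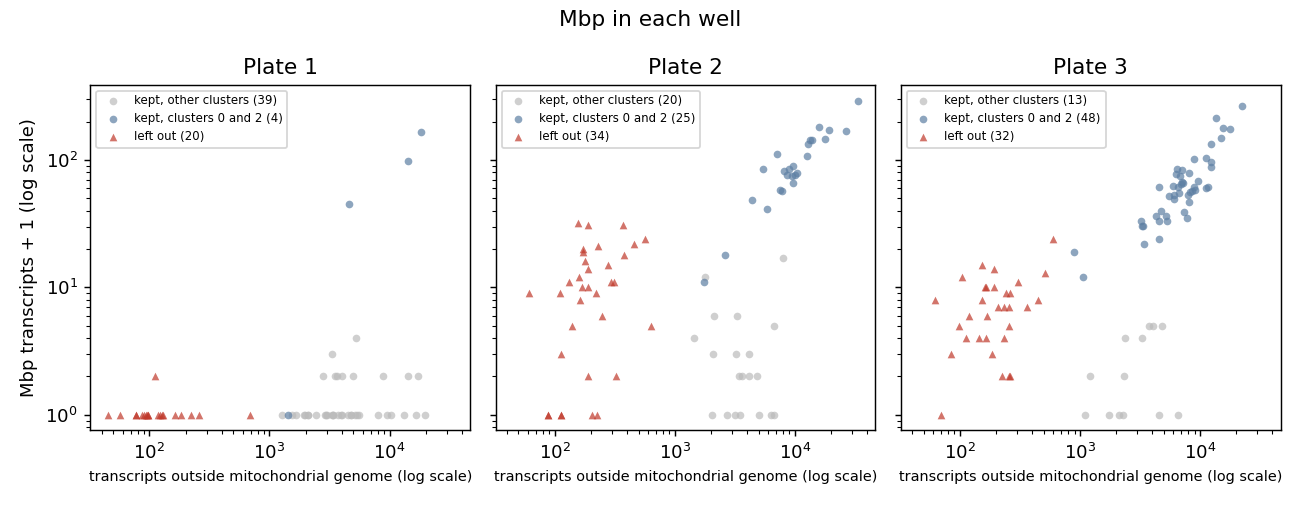
Mbp transcripts of each well plus 1 (y axis, log scale) against all transcripts outside the mitochondrial genome (x axis, log scale), with 1 panel per plate. Red triangles are wells left out, blue circles kept cells of clusters 0 and 2 and grey circles other kept cells; on plates 2 and 3 the wells left out lie far to the left of the blue circles, with up to 31.1 and 23.1 Mbp transcripts.

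Most other myelin genes were lower on plates 2 and 3. Of 28 listed, 19 fell by edgeR, 1, Mbp, rose and 8 were not called, among them Plekhb1 at 0.49, with a list median of -1.55, or -1.53 with the gene at 0 set to the floor. Of all 3714 genes tested, 2.18% fell and 0.862% rose, with a median of -0.92, or -0.34 with the floor. DESeq2 with plate called 1 of the 28 lower, Mal, and none higher. Mal, a membrane protein of compact myelin, had a log2 difference of -2.41 (SE 0.40; edgeR, adjusted p = 2.1e-06). Mog, a glycoprotein of the outer myelin surface, fell by 2.35 (log2; adjusted p = 5.23e-05), and Cldn11, which forms the tight junctions of myelin, by 1.59 (adjusted p = 0.00250). Mobp, whose mRNA is also known to be carried to the myelin sheath, fell by 1.60 (adjusted p = 0.00396). Under DESeq2 these 4 had log2 differences of -2.30 (adjusted p = 0.0388), -2.26 (0.184), -1.48 (0.316) and -1.48 (0.406). The whole list took 0.457%, 7.62% and 4.39% of transcripts in the wells left out and 2.00%, 10.6% and 11.2% in kept cells, a mean difference of -3.79 ± 2.75 percentage points (SD, n = 3 plates; exact sign-flip p = 0.25). This direction depends on which kept cells are used: against the third of kept cells with the fewest genes, of which 12 of 35 on plates 2 and 3 lie in clusters 0 and 2, the mean difference was 1.31 points, and Mal, Mog, Cldn11 and Mobp were higher in the wells left out by 0.61, 0.21, 0.88 and 0.56. In these sums, fewer wells with oligodendrocyte RNA and less of that RNA per well cannot be told apart.

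All 3 genes for kinesin-1 heavy chains were called higher on plates 2 and 3; the genes in this paragraph were chosen after their values were seen, and no list of such genes was tested. Kif5a (chromosome 10, 127225696 to 127263348, minus strand) was at 0, 2650 and 991 CPM in the wells left out of plates 1 to 3 and at 13.4, 53.2 and 22.99 CPM in kept cells, with a log2 difference of 5.33 on plates 2 and 3 (SE 0.59, edgeR adjusted p = 1.25e-15). On these plates 45 Kif5a transcripts were found in 20 of 66 wells left out, at most 9 in 1 well, and 33 in 19 of 106 kept cells, so the wells left out held more Kif5a transcripts per well (0.942 and 0.406) than the kept cells (0.489 and 0.180). Kif5c rose by 4.62 (adjusted p = 3.34e-06), from 10 transcripts in 7 wells, and Kif5b by 2.58 (adjusted p = 0.0206), from 17 transcripts in 12 wells. Trak2, which links kinesin to mitochondria, rose by 5.13 (adjusted p = 2.9e-05) on 15 transcripts in 9 wells, mostly of plate 2. Per well, Trak2 stood at 0.382 transcripts in wells left out and 0.111 in kept cells on plate 2. On plate 3 it stood at 0.0625 and 0.115. Trp53inp2, an autophagy factor, rose by 4.61 (adjusted p = 0.000393) on 22 transcripts in 16 wells. On plate 1 no transcript of these 5 genes was found in the wells left out, so no rise was seen there. Since 3 transcripts over that side correspond to a level well above that of the kept cells, a fall could not be detected. Whether a rise as large as on plates 2 and 3 was absent from plate 1 was not tested. The call of Kif5a was lost only without the block (adjusted p = 0.0529) among the alternatives run. Of the 32 genes called higher, 18 rest on fewer than 30 transcripts. Kif5a, Kif5c, Trak2 and Trp53inp2 passed the filter on low counts only through the wells left out. Their levels in kept cells of plates 2 and 3 were 53.2 and 22.99, 16.9 and 10.4, 12.1 and 14.6, and 24.2 and 37.6 CPM. Genes as low in kept cells without transcripts in the wells left out were not tested, so these calls describe genes picked for being high there. Without the filter, 8 genes were called higher. Without wells C12 and B12 of plate 3 the log2 difference of Kif5b on plates 2 and 3 was 2.50 (edgeR adjusted p = 0.0519). DESeq2 gave 2.70 (adjusted p = 0.113).

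Astroglial genes together were higher on plates 2 and 3, where few kept cells were astroglial, and not on plate 1. Even so, 5 of 25 tested had a higher level in the wells left out on every plate, against 146 of all 2689 genes tested. The 30 listed genes, shared by astrocytes and quiescent neural stem cells, took 3.74%, 1.52% and 2.38% of transcripts in the wells left out and 4.27%, 0.412% and 0.866% in kept cells, ratios of 0.88, 3.695 and 2.75. In the fit of plates 2 and 3, 7 of 25 tested rose and none fell, with a list median of 1.69. Of all 3714 genes tested there, 0.862% rose and 2.18% fell, with a median of -0.92. Aldoc, a glycolytic enzyme of astrocytes, went from 135 and 356 CPM in kept cells to 993 and 1753 CPM in wells left out of these plates (2328 against 4284 CPM on plate 1), a log2 difference of 2.38 (SE 0.48, edgeR adjusted p = 0.000137). The glutamate transporter gene Slc1a2 rose by 1.71 (adjusted p = 0.00138), and Slc1a3, the gene of the antigen used for selection, by 1.70 (adjusted p = 0.0295). Sparcl1, which encodes a secreted matrix protein of astrocytes, rose by 2.06 (adjusted p = 0.000208), the lipid carrier gene Apoe by 1.47 (adjusted p = 0.00158) and the transcription factor gene Sox9 by 2.42 (adjusted p = 0.0384). Astroglial transcripts outnumbered microglial ones in 14 of 20, 27 of 34 and 28 of 32 wells left out, with lists of 30 and 24 genes. This was not particular to these wells. A mean kept cell of clusters 0 and 2 held 37.4 astroglial and 12.7 microglial transcripts on plate 2, and 38.2 and 9.55 on plate 3. Over all kept cells the means were 37.9 and 194 on plate 2, and 68.0 and 55.3 on plate 3. None of these 6 genes kept its call under DESeq2 with plate: Aldoc (adjusted p = 0.0562), Slc1a2 (0.252), Slc1a3 (0.313), Apoe (0.303), Sparcl1 (0.145) and Sox9 (0.169). The same 6 were not called without the block (adjusted p from 0.182 to 0.296), without the filter on low counts (0.165 to 0.925) or against the third of kept cells with the fewest genes (0.256 to 0.642).

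The summed share of microglial genes differed between the sides in no constant direction. The 24 microglial genes took 2.68%, 1.02% and 0.679% in the wells left out and 2.03%, 2.11% and 0.705% in kept cells, and the mean difference of -0.152 ± 0.881 points (SD, n = 3 plates; exact sign-flip p = 0.75) was smaller than its spread. On plates 2 and 3, 1 of 22 tested fell and none rose by edgeR, with a list median of -1.71, or -1.53 with the 2 genes at 0 set to the floor. Levels of 19 of the 22 were lower in the wells left out on both plates, and none was higher on both. Among all 3714 genes tested there, 1812 were lower and 510 higher on both plates. Neuron genes took 0.114%, 0.0580% and 0.0229% against 0.0471%, 0.0196% and 0.0192% in kept cells, higher on 3 of 3 plates but from 4, 7 and 3 transcripts (exact sign-flip p = 0.25). Neuroblast genes gave 0, 1 and 3 transcripts over the 3 plates, and erythrocyte genes gave 0 on each. Genes for cytosolic ribosomal proteins took 3.91%, 2.27% and 1.75% against 3.598%, 2.06% and 1.83% in kept cells, and none of 71 tested on plates 2 and 3 was called in either direction (median -0.22; 2 had an unadjusted p under 0.05).

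**Figure D5:**
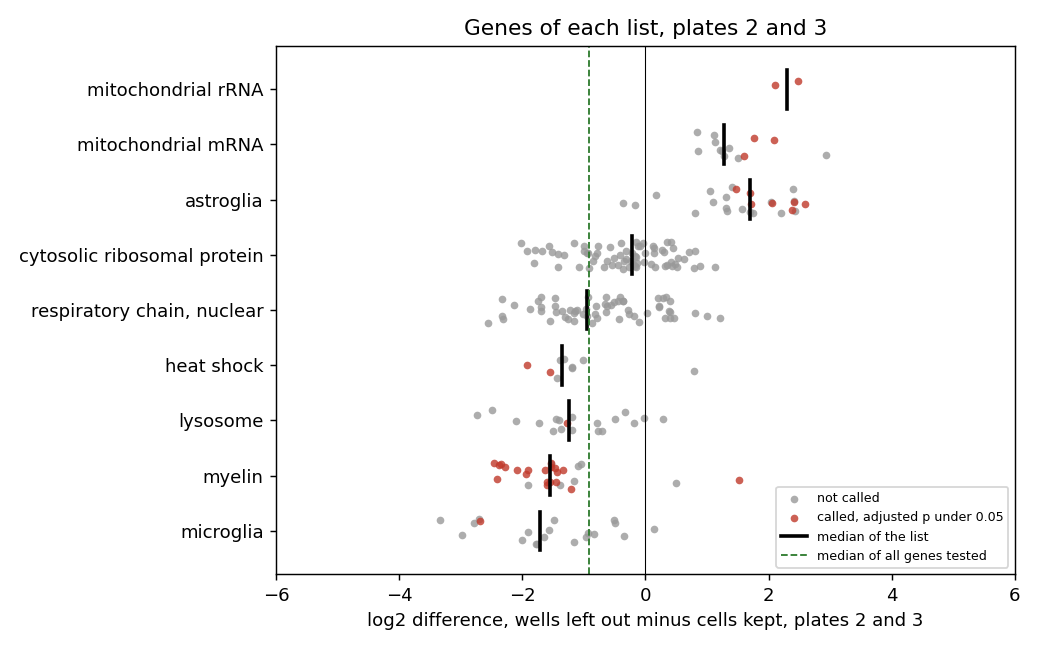
Log2 difference, wells left out minus kept cells, on plates 2 and 3 (x axis) for each tested gene of 9 lists (y axis); red points were called at an edgeR adjusted p under 0.05, black bars are list medians and the dashed line the median of all genes. Mitochondrial and astroglial genes lie to the right and myelin genes, except Mbp at 1.52, mostly to the left; 16 genes with no transcript in the wells left out are not drawn but count in the medians.

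Among the 81 genes that fell on plates 2 and 3, 10 had no transcript in any well left out on these plates. Tmeff2, a transmembrane protein gene, had 629 transcripts in 75 of 106 kept cells and none in 66 wells left out. Taken over all plates, Tmeff2 was at least 5.41-fold lower in the wells left out, Sort1, which encodes the sorting receptor sortilin, at least 3.81-fold and Endod1 at least 3.04-fold, each against a floor of 3 transcripts over the 86 wells (105 CPM). These genes were chosen after their values were seen. The bounds are not paired by plate and cover counting error only. Other genes that fell include the chaperone gene Hsp90aa1 by 1.92 (edgeR adjusted p = 0.00059), the transferrin gene Trf by 1.91 (adjusted p = 0.000137) and Olig1, a transcription factor gene of the oligodendrocyte lineage, by 1.98 (adjusted p = 0.00406). None of the genes in this paragraph was called by DESeq2, which gave -1.82 (adjusted p = 0.311), -1.81 (0.235) and -1.96 (0.357) for Hsp90aa1, Trf and Olig1. Malat1, a nuclear noncoding RNA that is among the most abundant RNAs of most cells, was at 7999, 6046 and 5339 CPM in the wells left out and 8825, 8396 and 10807 CPM in kept cells, and was not called (-0.93 on plates 2 and 3, adjusted p = 0.222).

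A few RNAs stood high in the wells left out of plate 1, partly through single wells. Kcnq1ot1, a nuclear noncoding RNA transcribed antisense to Kcnq1, was at 24984 CPM in its wells left out and 3584 CPM in kept cells, against 4802 and 3362 CPM on plate 2 and 3202 and 2947 CPM on plate 3. Well C13 alone, with 63.5 transcripts, held most of it, and without C13 its level was 8767 CPM, still above the kept cells. In the same well Gm17821 had 50.3 and A630089N07Rik 41.2 transcripts; without it they stood at 5478 and 4016 CPM, against 1779 and 1081 CPM in kept cells. No source used here says whether reads were counted by strand, so Kcnq1ot1 and Kcnq1 cannot be told apart. In the counts per well, Kcnq1ot1, Gm17821 and A630089N07Rik were grouped with Mid1 as background RNAs. Whether their transcripts came from cells was not tested. Rn45s, the precursor of cytosolic ribosomal RNA, was at 39521 CPM in wells left out and 19943 CPM in kept cells of plate 1; 51.3 of its transcripts lay in well B21, where they were 28.6% of the well, and without B21 its level was 26210 CPM. Rn45s differed little on the other plates (18483 against 21704 CPM and 23666 against 24938 CPM). Both wells were among the 4 left out of an added alternative, together with the mitochondrial wells C12 and B12 of plate 3. Without these 4 wells, 2 genes were called higher over 3 plates. On plates 2 and 3, where only C12 and B12 were taken out, 37 were called higher and 81 lower, of which 104 were among the 113.

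The number of genes at equal depth is a description, since genes per well already separate the sides. In draws of 100 identifiers, a well left out had a median of 79.8, 63.6 and 69.7 genes on plates 1 to 3 and a kept cell 87.4, 85.8 and 85.3, a mean difference of -15.1 ± 7.30 genes (SD, n = 3 plates). All plates were lower, plate 2 the most. 6 wells left out had too few identifiers for this, and the mitochondrial share of the wells, given above, was higher on the same plates; its part in the difference was not tested.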

How the data were processed

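Transcripts of single wells were measured by SORT-seq. The deposited tables hold estimated counts of transcripts per gene and well, which the authors made from molecular identifiers corrected for random collisions. Reversing that correction returned whole identifier numbers for 100% of 363716 values above 0 (tolerance 1e-06). Per the submitters' processing notes, Seurat 4.1.1, R 4.2.0, BWA 0.7.15 and the builds mm10 and hg19 were used, in roles that are not stated; no source used here gives the annotation. Coordinates are those of GENCODE M21 on GRCm38, matched by symbol. The authors' cluster numbers were used as deposited, and 17 other columns of the table per cell were not used. No doublet caller was run.

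Estimated counts were summed per plate and side, rounded, and tested with edgeR 4.0.16 (R 4.3.3): TMM, filterByExpr, quasi-likelihood test, plate as block, Benjamini-Hochberg adjustment at 0.05. Levels are CPM, transcripts per 1000000 of the summed side. Both sides of a plate come from 1 library and are paired by it. Wells are not replicates, and no label says that plates came from separate mice, so no p-value measures a spread between mice. The edgeR test borrowed spread across genes, with a mean of 5378 residual plus prior degrees of freedom in the fit of 3 plates. Its p-values thus rest on a spread shared by genes and do not measure how a single gene varied between plates. Differences of shares have a two-sided exact sign-flip test over plates. Intervals are exact binomial at 95% and cover counting error only, as does the floor of 3 transcripts. Genes per well at equal depth are exact expectations for draws of 100 identifiers. The fit was also run on counts simulated with its own estimated spread. Such counts cannot show whether that spread matches the real variation between plates. Alternatives were DESeq2 1.42.0, no block, other scaling, no filter, recovered identifier counts, thinned kept sums, omitted wells, fewer kept cells, no mitochondrial genes, and each plate left out.

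Named genes were, by rule, those called with 1 sign on all plates (up to 12 each way), the 10 with the highest level in wells left out, the 3 most abundant of each list, and Slc1a3. The members, the lists and the rule were chosen with earlier results of these data known. The fit of plates 2 and 3, its genes, and the symbols that match mitochondrial genes to the file (mtNd1 for mt-Nd1) were added after the values were seen. Some genes that the rule covers are not reported here.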

Additional observations from a re-analysis of the deposited data

How the results depend on the processing

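Pairing by plate is part of the main fit, since both sides of a plate come from 1 library. Over 3 plates, with 1 gene called higher and 0 lower, the fit with no replicate block called 0 and 0 (354 genes at an unadjusted p under 0.05), no filter on low counts 0 and 0, RLE size factors 4 and 1, totals only 4 and 1, thinned kept sums 8 and 15 of 103 genes tested, the third of kept cells with fewest genes 3 and 5 of 221, mitochondrial genes left out 2 and 1, the richest well of each plate omitted 2 and 0, and the 4 extreme wells omitted 2 and 0. Leaving out 1 plate gave 0 to 32 higher and 0 to 81 lower; the upper values are those without plate 1. On plates 2 and 3, with 32 higher and 81 lower, DESeq2 called 13 and 1, no replicate block 0 and 0 (607 unadjusted), no filter 8 higher, totals only 42 lower, thinned kept sums 21 lower of 123 tested, mitochondrial genes left out 47 lower, and the third of kept cells with fewest genes 4 and 15 of 344 tested. In that last setting 28 of the 66 genes it still tested changed sign, among the named ones Cldn11 (0.88), Enpp2 (0.36), Cryab (0.83), Mal (0.61), Mog (0.21), Cnp (1.15) and Mobp (0.56), and the share of myelin genes went to 1.31 percentage points; the kept cells used there hold fewer of clusters 0 and 2. The microglial difference was -1.46 points as a mean over wells and -4.21 with these kept cells, in both settings lower on 3 of 3 plates. The ribosomal protein difference was 0.985 with mitochondrial genes left out of the total. Genes at equal depth differed by -5.75 at 50 and -35.2 at 200 identifiers, which scale with the draw. Other causes were not tested. The median of all genes over 3 plates was -1.07 with TMM, -0.91 with RLE and -0.82 with totals. The depth of 3502 to 13119 transcripts per side limits every call on genes of low level.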

Other observations

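Subunits of the respiratory chain that are encoded in the nucleus were not higher in the wells left out, unlike those of the mitochondrial genome. The 83 nuclear genes took 0.942%, 0.646% and 0.610% of transcripts on plates 1 to 3 in the wells left out and 1.24%, 0.883% and 0.959% in kept cells, lower on 3 of 3 plates, with a mean difference of -0.294 ± 0.056 percentage points (SD, n = 3; exact sign-flip p = 0.25, the smallest that 3 plates allow). None of 71 tested on plates 2 and 3 was called by edgeR, and 1 had an unadjusted p under 0.05. Their median log2 difference of -0.95, or -0.51 with 11 genes at 0 set to the floor, lay near that of all genes. On plates 1 to 3 a mean well left out held 1.93%, 2.83% and 3.32% of the transcripts of these genes in a mean kept cell. For all transcripts outside the mitochondrial genome it held 2.44%, 2.79% and 3.16%. Lysosomal genes were also lower on 3 of 3 plates (0.628%, 0.480% and 0.297% against 0.683%, 0.831% and 0.599%), as were proteasome genes (0.228%, 0.224% and 0.183% against 0.395%, 0.304% and 0.322%). These are shares of totals of which mitochondrial transcripts took 36.7% and 46.9% in the wells left out of plates 2 and 3. On those plates the list medians were -1.24 for lysosomal and -0.91 for proteasome genes, against -0.92 for all genes. With genes at 0 set to the floor they were -1.20 and -0.11, against -0.34.

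Endothelial and mural genes were higher on 3 of 3 plates, from few transcripts: 0.171%, 0.116% and 0.267% in the wells left out against 0.0791%, 0.0283% and 0.0506% in kept cells, from 6, 14 and 35 transcripts (exact sign-flip p = 0.25). Cldn5, a tight junction gene of endothelial cells, rose on plates 2 and 3 (log2 difference 3.38, edgeR adjusted p = 0.0380) on 4 transcripts. With 7.25 and 18.8 CPM in kept cells, it passed the filter on low counts only through the wells left out. Immediate early genes of the dissociation list stood at 1.49% in the wells left out of plate 1 against 0.303% in kept cells, and differed little on plates 2 and 3 (0.422% against 0.407%, and 0.213% against 0.286%). Heat shock genes went the opposite way between plates, with 0.714% against 0.506% on plate 1, 0.464% against 0.835% on plate 2 and 0.282% against 0.997% on plate 3. Over 2689 genes, the profile of the wells left out on plate 1 had a Spearman rho of 0.37 with the kept cells of plate 1 and of 0.12 and 0.11 with those of plates 2 and 3. The wells left out on plate 2 had 0.34, 0.38 and 0.39 with the kept cells of plates 1 to 3, and those on plate 3 had 0.35, 0.27 and 0.32; these values are across genes, which are not replicates.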
